A study of Mus musculus with 20 samples.

Results

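Mm018 and Mm068 are 2 of the 120 mouse probes on the Sterolgene V1 array, a small array built around genes of drug metabolism and cholesterol homeostasis. They were picked because their log2 ratio of treated over control liver was lower in PXR-deficient than in wild type mice in an earlier analysis of these same arrays. The deposited files pair neither identifier with a gene, so no gene, sequence or function is given for them, and the tissue label was not checked against marker genes. Described as probes that lose their response without PXR, they were also close to 0 in mice that lack CAR but carry PXR. Ratios near 0 were thus not limited to livers without PXR.

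CAR (the constitutive androstane receptor) and PXR (the pregnane X receptor) are nuclear receptors of the liver. Each pairs with the retinoid X receptor on the DNA and switches on enzymes and transporters that clear drugs and other foreign compounds. Their sets of target genes overlap, and both also touch the handling of cholesterol and bile acids. TCPOBOP is a strong agonist of mouse CAR and is widely used to activate this receptor in mouse liver.

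The series compared RNA of single livers of mice injected with 10 mg/kg TCPOBOP (Cy5, the red channel) with a pool of 6 livers of mice injected with the vehicle, 5% DMSO in corn oil (Cy3, the green channel), 12 h after injection. Each of the 20 arrays held 1 treated liver against the pool of its own genotype: 6 arrays of wild type mice (WT), 6 of mice without CAR (CARKO), 4 of mice without PXR (PXRKO) and 4 of mice deficient in both receptors (CARPXRKO). All mice were male C57BL/6J mice 9 to 12 weeks old. How the receptors were inactivated is not given in the sources used here. Each genotype had 1 pool, so an error of a pool moves all arrays of that genotype together, and dyes were not swapped. The replicates carry numbers in the labels but no animal names, so the spread given here is that between samples and may be partly technical. In liver RNA, fewer cells of a type and less RNA per cell cannot be told apart.

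Per array, mouse spots had a median signal of 226 to 987 intensity units in Cy5 and of 403.5 to 1136 in Cy3, over backgrounds of 45.5 to 203 and 121 to 507.5. The log2 ratio before normalization had a median over all probes of −2.03 to −0.05 on the WT arrays, −1.004 to 0.29 on CARKO, −0.26 to 1.42 on PXRKO and 0.42 to 0.72 on CARPXRKO. The array-wide balance of the dyes thus differed with genotype, and the values below rest on loess normalization, which sets the bulk of the probes on each array to 0 at every brightness. On 4 arrays (WT 3, WT 5, CARKO 3, CARPXRKO 3) the protocol given for the Cy5 channel is that of the vehicle pool, and the pool of CARPXRKO 3 is labelled PXR deficient in 1 field and deficient in both receptors in another.

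The 2 probes are very unlike in brightness. Mm018 was among the 6 brightest mouse probes on every one of the 20 arrays, with a median rank of 3. Its Cy5 signal, the mean of its 3 spots, ran from 8953 on WT 3 to 59843 on CARKO 2, and its Cy3 signal from 10326 on CARPXRKO 3 to 48677 on CARKO 2. The scanner ceiling is 65535, and 5 of its 60 spots held saturated pixels: 1 on WT 1, 3 on CARKO 2 and 1 on CARKO 4. On CARKO 2 up to 55% of the Cy5 pixels of a spot were saturated, so that its Cy5 signal there is a lower bound. Mm068 sat in the middle of the range, at rank 34 to 71 with a median of 41. Its Cy5 signal ran from 368 on CARPXRKO 1 to 1909 on CARKO 2 and its Cy3 signal from 451 on CARPXRKO 1 to 1876 on WT 3, with no saturated pixel in any of its 60 spots. No spot of either probe was flagged on any array.

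**Figure D1:**
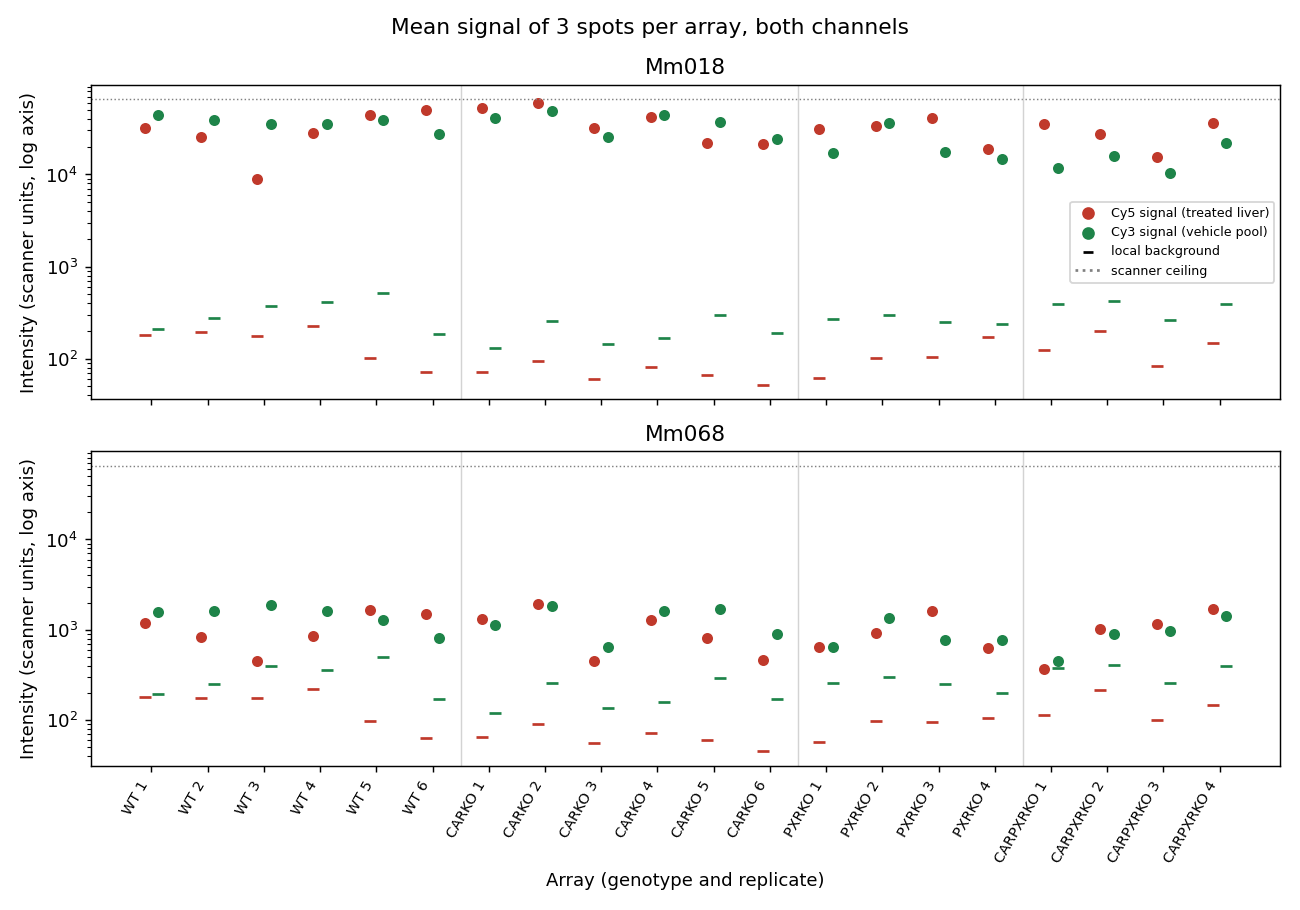
Mean signal of the 3 spots of Mm018 (upper panel) and Mm068 (lower panel) on each of the 20 arrays, in scanner intensity units on a log axis. Filled points are the Cy5 (treated liver) and Cy3 (vehicle pool) signals, short bars the local background and the dotted line the scanner ceiling of 65535. Mm018 lies far above background and close to the ceiling on CARKO 2, while Mm068 on CARPXRKO 1 has a Cy3 signal of 451, 1.19 times its background.

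Signal over background limits Mm068 and not Mm018. A spot was called above background where its signal was over 2 SDs of the local background higher, and all 60 spots of Mm018 were in both channels. For Mm068, 56 of 60 spots did so in Cy5 and 56 of 60 in Cy3. The Cy3 shortfall came from CARPXRKO 1, where 0 of 3 spots passed, and from 1 spot of PXRKO 1. The Cy3 signal of Mm068 was 2.61 to 8.24 times background on WT, 4.77 to 10.2 times on CARKO, 2.56 to 4.44 times on PXRKO and 1.19 to 3.73 times on CARPXRKO. The highest values of PXRKO and CARPXRKO lay below all CARKO values, and the part of this difference in the results below was not tested.

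In wild type livers both probes were higher in treated liver than in the pool on 6 of 6 arrays. The log2 ratio of Mm018 was 0.15 at its lowest (WT 5), 0.68 at the median and 1.05 at its highest (WT 2), a mean of 0.65 ± 0.33 (SD, n = 6), or 1.57-fold. That of Mm068 was 0.26 at its lowest (WT 3), 0.55 at the median and 1.07 at its highest (WT 6), a mean of 0.64 ± 0.32 (SD, n = 6), or 1.56-fold. The means were close, but different arrays led: Mm018 was highest on WT 2 and WT 4, and Mm068 on WT 6 and WT 1. Without the 4 arrays with the vehicle pool protocol for Cy5, WT 3 and WT 5 included, the WT means were 0.83 and 0.73. WT values took part in the choice of these probes and carry no test; 39% of the 82 probes that could be fitted passed in WT in either direction. In WT, Mm018 and Mm068 had the 11th and 12th highest mean ratios of these 82, whose median was −0.03.

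In PXR-deficient livers neither probe was higher in the treated liver as a group. Mm018 had log2 ratios of −0.08, −0.34, −0.84 and 0.08 on PXRKO 1 to 4, a mean of −0.29 ± 0.40 (SD, n = 4), or 0.815-fold. Mm068 had −0.05, 0.0015, −0.23 and −0.37, a mean of −0.16 ± 0.17 (SD, n = 4), or 0.894-fold. After loess every PXRKO value of each probe lay below every WT value, which the choice of the probes favours. With only the array median taken off, this held for Mm068. The values of Mm018 then overlapped, with PXRKO up to 0.37 and WT from 0.05. How many other probes had no overlap between genotypes was not counted, here or below. In PXRKO 18.3% of the 82 probes passed in either direction. The mean of Mm018 leans on PXRKO 3, whose 3 spots ranged from −1.46 to −0.33. Without that array the PXRKO mean of Mm018 was −0.11. With the arrays only centred on their median, without the brightness-dependent loess step, the mean of Mm018 was 0.04 and that of Mm068 −0.24.

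**Figure D2:**
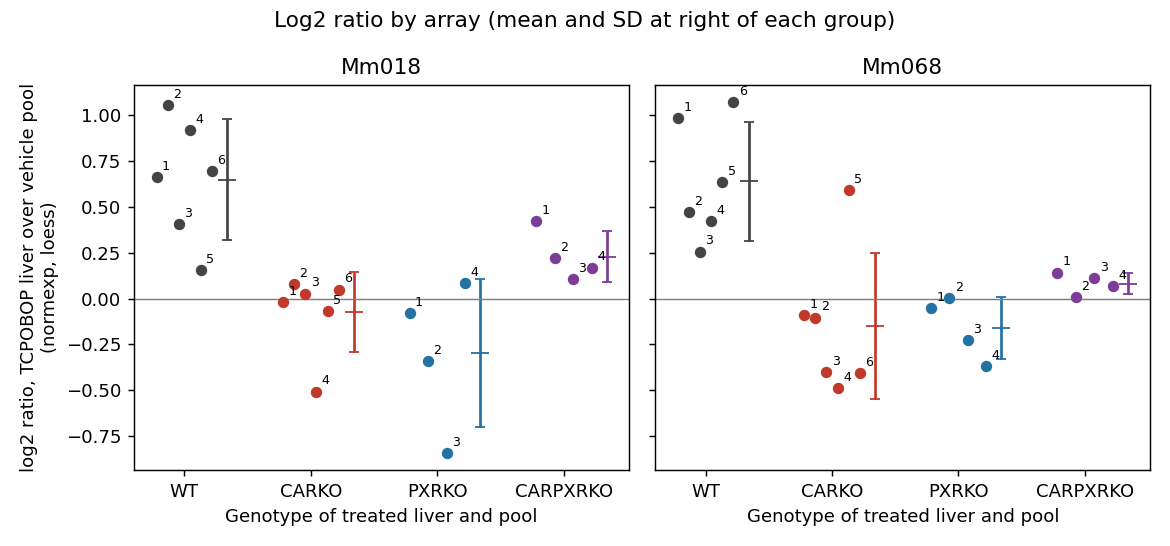
Log2 ratio of treated liver over vehicle pool for Mm018 (left) and Mm068 (right), one point per array with its replicate number, grouped by genotype. The mean and SD stand to the right of each group. The WT points lie between 0.15 and 1.07, above all PXRKO points, and the CARKO points lie near or below 0 except Mm068 on CARKO 5 at 0.59.

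The difference PXRKO minus WT, the measure by which the pair was chosen, was −0.94 for Mm018 and −0.80 for Mm068 on the log2 scale. It is a description and has no test here. In this contrast 3 of 82 probes (3.66%) passed an adjusted p of 0.05 in limma, both members among them, as the choice fixes. By size alone they had, after loess, the second and the third lowest difference of the 82 probes. The lowest, at −1.15, was a probe that did not pass, and the one after Mm068 was at −0.78, so the pair is not set apart by a gap. The rank of Mm018 depended on the processing. It was 11 with median centring, 12 with calibration centring and 7 with print-tip loess or background subtraction. It stayed at 2 with scale normalization or no background correction. Mm068 ranked 2, 3, 5, 5, 3 and 5 in these settings. Of the probes with a lower mean in PXRKO, the one nearest the threshold outside it was at −0.46. By their spot coordinates, arrays with odd and with even replicate numbers lie at different slide positions, and the difference was below 0 in both. It was −0.87 and −1.02 for Mm018, and −0.76 and −0.84 for Mm068, in odd and in even replicates.

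The CARKO and CARPXRKO means were not part of the contrast that chose the probes, so they allow a test. Their arrays did enter the same fit, through the filter on probes and the shared estimate of spread. In CAR-deficient livers, which carry PXR, neither probe passed the threshold. The log2 ratio of Mm018 was −0.51 at its lowest (CARKO 4), 0.0032 at the median and 0.08 at its highest (CARKO 2), a mean of −0.07 ± 0.22 (SD, n = 6; limma, adjusted p = 0.76), above 0 on 3 of 6 arrays. That of Mm068 was −0.49 at its lowest (CARKO 4), −0.25 at the median and 0.59 at its highest (CARKO 5), a mean of −0.15 ± 0.40 (SD, n = 6; limma, adjusted p = 0.612), below 0 on 5 of 6 arrays. In CARKO 4 of 82 probes (4.88%) passed in either direction.

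The 95% interval of the CARKO mean was −0.31 to 0.17 for Mm018 and −0.40 to 0.10 for Mm068. After loess the CARKO and WT values of Mm018 did not overlap, and those of Mm068 overlapped through CARKO 5 alone. With only the array median taken off, those of Mm018 overlapped, with CARKO up to 0.26 and WT from 0.05. In CARKO minus WT 18.3% of probes passed in either direction. The differences CARKO minus WT were −0.72 for Mm018 and −0.79 for Mm068. They stand beside −0.94 and −0.80 for PXRKO minus WT. Both sets share the WT arrays that entered the choice, and have no test. For Mm068 the CARKO and PXRKO means differed by 0.01, less than the spread between arrays, and for Mm018 by 0.22, also less than the spread.

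2 CARKO arrays stood apart. On CARKO 4 the 3 spots of Mm018 had log2 ratios from −1.62 to 0.11. The low spot held saturated pixels and a Cy5 median of 19853, against 54283 and 53210 in the other two. Without CARKO 4 the CARKO mean of Mm018 was 0.01. With the spots that held saturated pixels left out it was 0.0079, and with the median of the spots in place of their mean 0.0053. On CARKO 5 all 3 spots of Mm068 lay between 0.55 and 0.64, so the array was high in every spot. Its unnormalized ratio was −0.91 against an array median of −1.004, and the loess step added 1.495 to it. Without CARKO 5 the CARKO mean of Mm068 was −0.30 (limma, adjusted p = 0.102).

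**Figure D3:**
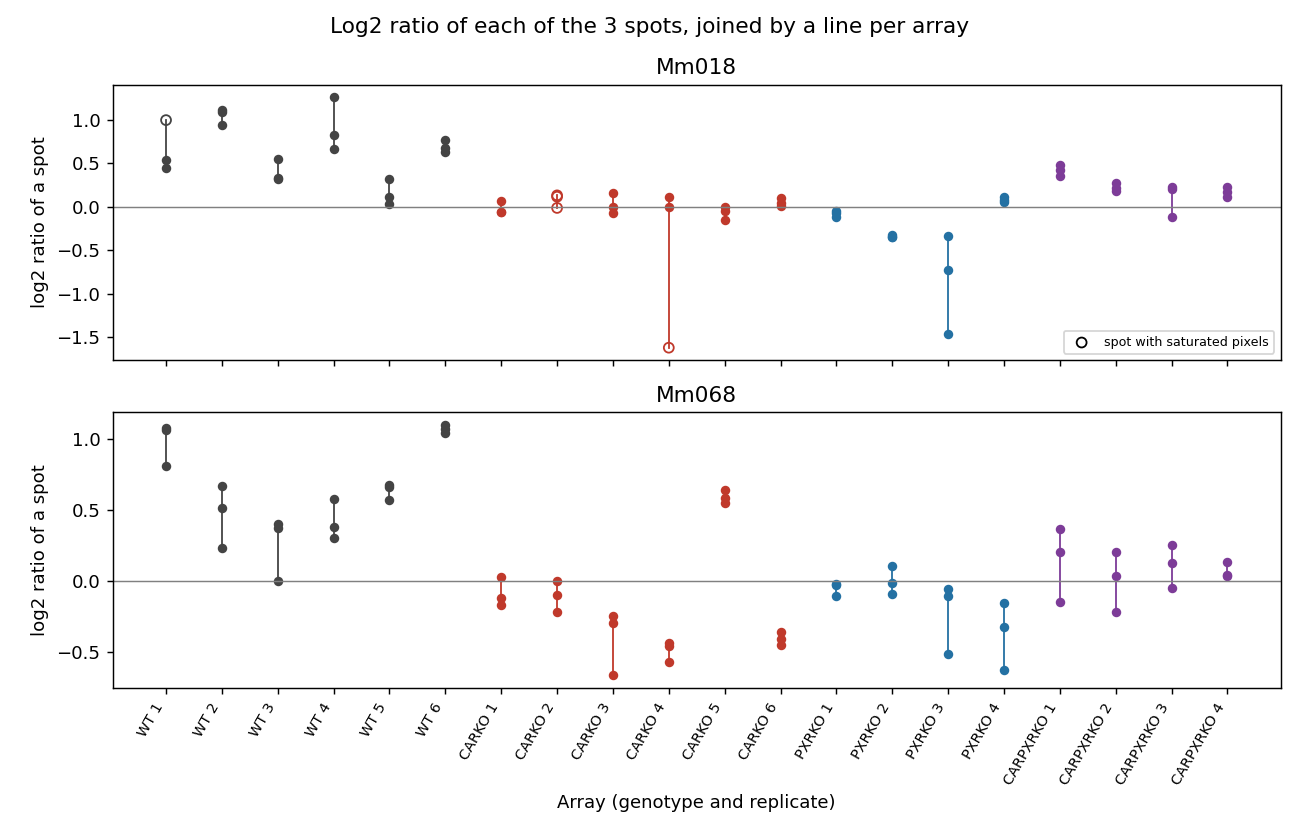
Log2 ratio of each of the 3 spots of Mm018 (upper panel) and Mm068 (lower panel) on each array, joined by a line, with open points for spots that held saturated pixels. The widest spread is that of Mm018 on CARKO 4, from −1.62 to 0.11, followed by PXRKO 3, from −1.46 to −0.33.

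Repeat spots of the other arrays mostly lay closer together, with exceptions. The SD over the 3 spots had a median over arrays of 0.08 for Mm018 and 0.12 for Mm068. The largest was 0.97 for Mm018 (CARKO 4) and 0.26 for Mm068 (CARPXRKO 1). Beside CARKO 4 and PXRKO 3, the spots of Mm018 spanned 0.60 on WT 4 and 0.55 on WT 1. Those of Mm068 spanned 0.52 on CARPXRKO 1, 0.47 on PXRKO 4 and 0.45 on PXRKO 3, each more than the size of the array's own log2 ratio. All spots of both probes lie in the second of the 2 printed blocks.

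In livers without both receptors the ratios were small and positive, and neither probe passed. Mm018 had log2 ratios of 0.42, 0.22, 0.11 and 0.17 on CARPXRKO 1 to 4, a mean of 0.23 ± 0.14 (SD, n = 4; limma, adjusted p = 0.282). Mm068 had 0.14, 0.0067, 0.11 and 0.07, a mean of 0.08 ± 0.06 (SD, n = 4; limma, adjusted p = 0.741). Both were above 0 on 4 of 4 arrays, though the mean of Mm068 was below 0 with the arrays centred on calibration control spots (−0.33) and in the authors' deposited table (−0.34). In CARPXRKO 17 of 82 probes (20.7%) passed in either direction, so this genotype was not without calls. The 95% interval of the mean was −0.065 to 0.52 for Mm018 and −0.22 to 0.38 for Mm068. Mm068 on CARPXRKO 1 rests on Cy3 signals not well above background, and without that array its mean was 0.06.

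The step from CARKO to CARPXRKO is the other place in the design where PXR is lost, here on a CAR-deficient background. With loess normalization neither probe was lower after this step, while with calibration centring both were (−0.35 and −0.44). The loess difference CARPXRKO minus CARKO was 0.30 ± 0.18 for Mm018 (SE, limma, adjusted p = 0.285) and 0.23 ± 0.19 for Mm068 (SE, limma, adjusted p = 0.449), and neither passed the threshold. The 95% intervals were −0.08 to 0.68 and −0.16 to 0.62. Whether the effect of PXR loss itself differs between the backgrounds was not tested, because WT and PXRKO chose the probes. In this comparison 18 of 82 probes (22%) passed in either direction, with a median difference of 0.02 over all 82. After loess the 4 CARPXRKO values of Mm018 all lay above the 6 CARKO values, narrowly (lowest 0.106, highest 0.078), while those of Mm068 overlapped. With only the array median taken off, those of Mm018 overlapped too. They were then −0.22 to 0.26 in CARKO and 0.16 to 0.92 in CARPXRKO. Taken by slide position, odd then even replicates, the difference CARPXRKO minus CARKO was 0.28 and 0.32 for Mm018, and 0.09 and 0.37 for Mm068. None passed the threshold (limma, lowest adjusted p = 0.325).

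By mean log2 ratio after loess, over all arrays, the order was WT, CARPXRKO, CARKO and PXRKO for both probes. It is a description, and its lower end turns for Mm068 without CARKO 5, where CARKO was at −0.30 and PXRKO at −0.16. It also turns for Mm068 with print-tip loess (CARKO −0.198, PXRKO −0.114) and with scale normalization after loess (−0.245 and −0.145). The same holds with no background correction (−0.142 and −0.125), but not with background subtraction (−0.170 and −0.193). With the arrays centred on calibration control spots, Mm018 ran from PXRKO (0.51) over CARKO (0.39) and WT (0.26) to CARPXRKO (0.04). The gap between WT and the next genotype was 0.42 for Mm018 and 0.56 for Mm068, more than the larger SD of the groups compared. The WT and CARPXRKO values of Mm018 overlapped, since WT 5 (0.15) and WT 3 (0.40) lay below CARPXRKO 1 (0.42), while those of Mm068 did not. With only the array median taken off, those of Mm068 overlapped as well (WT from 0.08, CARPXRKO up to 0.12). WT 5 and WT 3 are the WT arrays whose Cy5 protocol text is that of the vehicle pool. In CARPXRKO minus WT 29.3% of probes passed in either direction. CARPXRKO exceeded CARKO by more than the larger SD for Mm018 (0.30 against 0.22) and not for Mm068 (0.23 against 0.40). CARKO and PXRKO differed by less than the larger SD for both. CARPXRKO exceeded PXRKO by 0.52 for Mm018 and by 0.24 for Mm068, with no overlap of the loess values in either. With only the array median taken off, those of Mm018 overlapped (PXRKO up to 0.37, CARPXRKO from 0.16). Those of Mm068 did not. In this comparison 28% of probes passed the limma threshold in either direction, which is not a share of probes without overlap. PXRKO took part in the choice, so these differences have no test.

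The channels were also read singly, although a level then carries the labelling of its own array. Relative to the median of the 82 probes in the same channel of the same array, the log2 Cy3 level of Mm018 was 4.69 ± 0.27 in the WT pool (SD, n = 6), 5.19 ± 0.22 in the CARKO pool (n = 6), 4.84 ± 0.21 in the PXRKO pool (n = 4) and 4.28 ± 0.29 in the CARPXRKO pool (n = 4). Its Cy5 level in treated livers was 5.05 ± 0.37, 5.25 ± 0.41, 4.81 ± 0.46 and 4.71 ± 0.56 in the same order. The Cy3 level of Mm068 was −0.14 ± 0.19, 0.20 ± 0.29, 0.05 ± 0.15 and −0.30 ± 0.69. Its Cy5 level was 0.25 ± 0.26, −0.02 ± 0.57, −0.26 ± 0.22 and −0.25 ± 0.76. The arrays of a genotype share 1 pool, so the Cy3 SDs are the spread of repeat hybridizations of that pool. Between WT and PXRKO the Cy5 level of Mm068 was lower by more than either SD, and the Cy3 level differed by about 1 SD. For Mm018 neither channel differed by more than the larger SD. Between CARKO and CARPXRKO, both channels of Mm018 were lower in CARPXRKO, Cy3 by more than either SD and Cy5 by less than the larger SD. Those of Mm068 were also lower in CARPXRKO, by less than the larger SD.

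The correlation of the 2 probes within a genotype depended on the normalization. Across the 6 WT arrays, whose values took part in the choice and have no test, the Pearson correlation of their loess-normalized log2 ratios was −0.02 and the Spearman one −0.03. The WT Pearson correlation was 0.41 with median centring and 0.95 both with calibration centring and in the authors' deposited table. Calibration centring and the deposited table do not set the median of each array to 0. Offsets shared by all probes of an array thus enter the 0.95, and their part in it was not tested. Across the 6 CARKO arrays, after loess, the Pearson correlation was 0.24 (two-sided exact permutation p = 0.583) and the Spearman correlation 0.03 (two-sided exact permutation p = 1). The Benjamini-Hochberg adjusted p over the 2 genotypes computed was 0.985 and 1. Without WT 5 and WT 2, the arrays farthest from the median of Mm018, the WT Pearson correlation was 0.22 (n = 4). Without CARKO 4 and CARKO 2 that in CARKO was −0.96 (n = 4), so its sign rests on single arrays.

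Over all 20 arrays the pair had a Pearson correlation of 0.64, which includes the genotype difference both were chosen for and is a description only. Mm068 was the second most similar of 81 probes to Mm018, and Mm018 the second most similar to Mm068. The most similar to Mm018 was Mm022 (0.75 over 19 arrays), with mean log2 ratios of 0.22 in WT, −0.06 in CARKO, −0.26 in PXRKO and 0.20 in CARPXRKO. The most similar to Mm068 was Mm070 (0.70 over 20 arrays), with 0.35, 0.0067, −0.11 and 0.30. Both neighbours share the order of signs of Mm018 in WT, PXRKO and CARPXRKO, at smaller WT means. The points share arrays, pools and normalization, and nothing is said here of shared control.

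The level of the ratios depends on what is taken as 0. The array also carries control spots whose identifiers begin with Lcal, taken here as calibration controls, with an intended ratio that is not given in the sources used here. Centring each array on these moved the median of all probes to −0.36 in WT and 0.46 in PXRKO, a shift of 0.85 in PXRKO minus WT. On that scale PXRKO minus WT was 0.25 for Mm018 and −0.07 for Mm068, so Mm018 was then higher in PXRKO and Mm068 nearly level. Relative to the median of all probes it was −0.60 and −0.92. Calibration and median centring each move all probes of an array together, so taking off that median leaves the same or nearly the same values. This scale thus cannot show a shift shared by all probes. Over 8 ways of processing, these 2 included, the difference relative to that median was −0.92 to −0.59 for Mm018 and −0.93 to −0.67 for Mm068. CARPXRKO minus CARKO relative to the median was 0.14 to 0.73 for Mm018 and 0.06 to 0.32 for Mm068. Without taking off the median, calibration centring gave −0.35 and −0.44, beside an all-probe median of −0.58. PXRKO minus WT is the measure that chose the probes, so its range over these settings is a description.

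**Figure D4:**
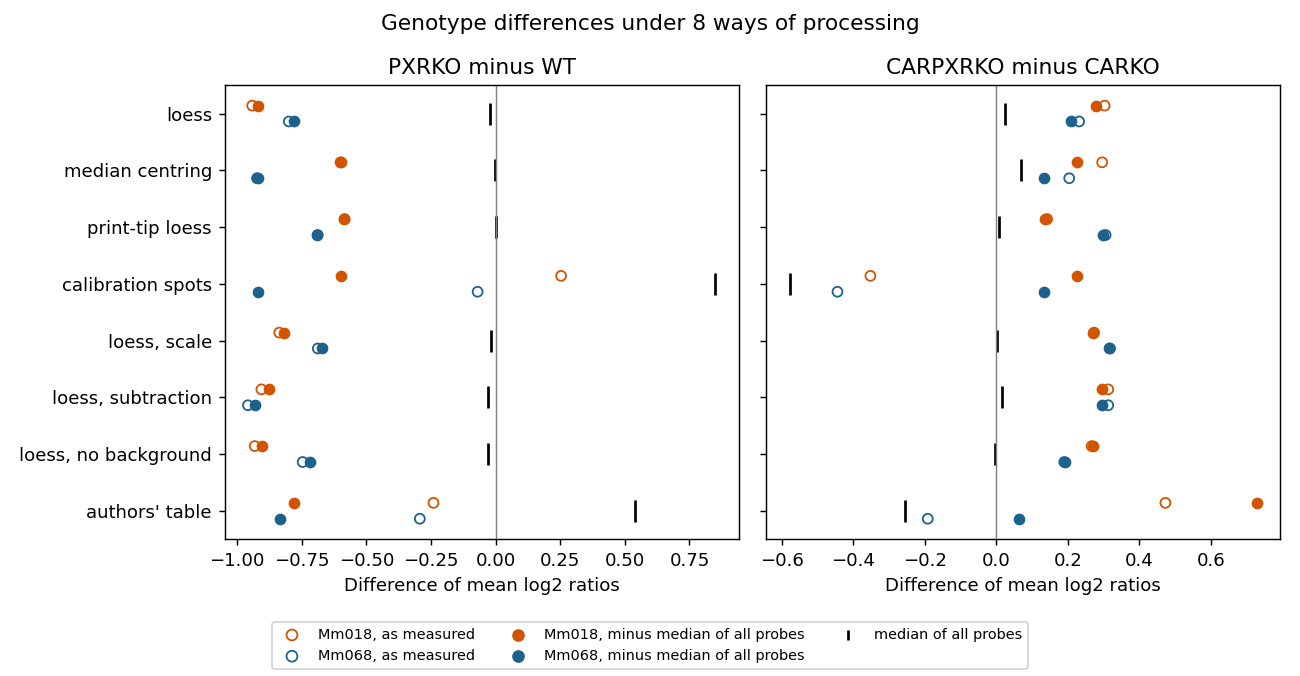
Difference of mean log2 ratios for PXRKO minus WT (left) and CARPXRKO minus CARKO (right) under 8 ways of processing, for Mm018 and Mm068. Open points are values as measured, filled points the same after the median of all probes (black bars) is taken off. In the left panel the filled points lie between −0.93 and −0.59, and in the right panel between 0.06 and 0.73.

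In the authors' deposited value table the WT columns split. Mm018 had log2 values of −0.25, −0.19, −0.81, −0.14, 0.72 and 1.58 on WT 1 to 6, and Mm068 −0.01, −0.49, −0.73, −0.44, 1.45 and 1.79. The medians of the mouse probes in the same columns were −1.01 to −0.85 on WT 1 to 4 and 0.64 to 0.65 on WT 5 and 6, so both probes lay above the median of every WT column. In PXRKO the table gave 0.28, −0.48, −0.74 and 0.58 for Mm018 and 0.14, −0.28, −0.09 and 0.11 for Mm068. The table's centring is unknown, and its PXRKO minus WT differences, −0.24 and −0.29 as deposited, were −0.78 and −0.83 relative to the median of its 68 fitted probes.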

How the data were processed

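Per the labels, treated liver RNA was labelled with Cy5 and the vehicle pool with Cy3. Per the file headers, each scanner table holds unnormalized intensity per spot, its local background and the percent of saturated pixels. The deposited value table of the authors holds log2 ratios, judged from Pearson correlations of 0.81 to 0.995 with, and slopes of 0.85 to 1.15 on, the ratios of the deposited intensities. Its centring is unknown (medians −1.01 to 0.65). It was used as an alternative.

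Intensities were background-corrected with normexp (offset 50) in limma 3.58.1 (R 4.3.3) and normalized by loess within arrays, giving weight 0 to controls and flagged spots. The flagged ones (0 to 247 per array) were left out, saturated spots kept, and 3 spots averaged. The 82 of 120 probes with values on at least 3 arrays of each genotype entered 1 fit (lmFit, eBayes; 3.12 prior and 16 residual degrees of freedom), with Benjamini-Hochberg adjustment over all 82. The fit was tested on simulated data. Named probes were the members and, for each, the 2 probes most correlated with it over at least 16 arrays. Members and lists were chosen with earlier results of these data known. Arrays were not paired by replicate number, as the labels do not say that the numbers mark a shared litter, batch or day. The 26 same-numbered pairs of arrays had correlations of −0.50 to 0.31. Their median was 0.07, against −0.003 in the other pairs, and such correlations cannot exclude a shared factor. No 2 arrays were identical. Alternatives changed the background correction, normalization, spot and probe filters, blocks and arrays used.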

Additional observations from a re-analysis of the deposited data

Results flagged for a closer look

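Among the 8 groups of arrays examined (2 probes in 4 genotypes), 2 had a sample far from the others, where chance alone marks about 1 group in 20. Mm018 on CARKO 4 was at −0.51, with the next array at −0.07. Its low value comes from 1 of 3 spots. Mm068 on CARKO 5 was at 0.59, with the next array at −0.09, and all 3 of its spots were high.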

How the results depend on the processing

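For the CARKO, CARPXRKO and CARPXRKO minus CARKO results of both probes, none of the 19 other settings or of the 20 fits without 1 array each passed the threshold in limma (lowest adjusted p = 0.0552, Mm018 in CARPXRKO with median centring). Signs changed as follows. With calibration centring, CARKO was 0.39 (Mm018) and 0.11 (Mm068), CARPXRKO −0.33 (Mm068), and CARPXRKO minus CARKO −0.35 and −0.44. In the authors' table, Mm068 was −0.34 in CARPXRKO and −0.19 in CARPXRKO minus CARKO. Mm018 in CARKO was 0.11 with median centring, 0.0079 without saturated spots, 0.0053 with spot medians, and −0.10 to 0.013 without 1 array each. Mm068 in CARKO was 0.033 in odd replicates. Of the untested values, WT moved to 0.26 and 0.29 with calibration centring and to 0.15 and 0.26 in the table. PXRKO moved to 0.51 and 0.22 with calibration centring. PXRKO minus WT moved to 0.25 and −0.070 with calibration centring and to −0.24 and −0.29 in the table. It was −1.07 to −0.76 (Mm018) and −0.88 to −0.71 (Mm068) without 1 array each. Without the 4 arrays that carry the vehicle pool protocol for Cy5, PXRKO minus WT was −1.125 and −0.90. The WT correlation of the 2 probes was 0.052 with background subtraction, 0.050 with no correction, 0.066 with print-tip loess, 0.41 with median centring, and 0.95 both under calibration centring and in the table, and −0.29 to 0.18 without 1 array each. That in CARKO was −0.76 to 0.54 without 1 array each. With the replicate block, CARPXRKO minus CARKO was 0.26 (adjusted p = 0.421) and 0.34 (adjusted p = 0.235), and no call changed. Over all settings, probes past the threshold numbered 0 to 7 in CARKO (4 as reported), 0 to 35 in CARPXRKO (17) and 0 to 30 in CARPXRKO minus CARKO (18, as 10 higher and 8 lower; 8 and 4 after median centring, 0 and 1 after calibration centring). The number of arrays limits the precision, and Cy3 near background that of Mm068.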
